A study of Mus musculus with 12 samples.

Results

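Palatal shelves of mouse embryos that lacked functional Pax9 were compared with those of control embryos, all from dams given the Wnt agonist WAY-262611. Of the 12 libraries of the study, 6 carry the treatment in their names, and those named as mutants were set against those named as wild type or heterozygous. The WAY mutants were 3 Pax9-/- embryos, and the WAY controls were 2 Pax9+/+ embryos and 1 Pax9+/- embryo. The untreated embryos, 3 Pax9-/- mutants and 3 controls (1 Pax9+/+ and 2 Pax9+/-), entered the fit to estimate the spread and serve as the point of comparison for the treated ones. Every embryo was of the C57BL/6 strain and labelled embryonic day 14, and the treated embryos came from Pax9+/- females injected daily in the tail vein from E10.5 to E14. The untreated embryos carry the treatment label Control, and the labels do not say whether their dams were injected with a vehicle. The Pax9 allele itself is not described in the labels. Each library is RNA of the micro-dissected shelves of 1 embryo, selected with oligo(dT).

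Pax9 is a paired-domain transcription factor of the neural-crest-derived mesenchyme, and mice without it have a cleft palate and lack teeth. It is known to act with the homeobox factor Msx1 to keep the growth factor Bmp4 expressed in tooth and palate mesenchyme, from where BMP and Wnt signals pass between mesenchyme and oral epithelium. WAY-262611 is a small molecule that raises canonical Wnt signalling by acting against Dkk1, a secreted inhibitor of Wnt co-receptors. The comparison asks which genes still differed between mutant and control shelves when that agonist was given.

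Values are FPKM, that is fragments corrected for gene length and for the size of the library, so levels of different genes are per length. Depth was 36.9, 37.4 and 39.8 M recovered reads in WAY mutants 1, 2 and 3 and 45.7, 38.8 and 40.0 M in WAY controls 1, 2 and 3. The sample titles carry a number that embryos share. WAY mutant 1 and WAY control 1 (Pax9+/+) share one number (titled WAY-Pax9-mt-318-2 and WAY-Pax9-WT-318-6) and are called set A. WAY mutants 2 and 3, WAY control 2 (Pax9+/-, titled WAY-Pax9-Het-422-1) and WAY control 3 (Pax9+/+) share the other and are called set B. The set was fitted as a block, and mutants were compared with controls within it. The first principal component of the 6 treated libraries (57.3% of variance) separated set A from set B. The second (22.4%) had the 3 mutants on one side and the 3 controls on the other. Xist was high and Y-linked genes were near 0 in both embryos of set A, and the reverse held in all 4 embryos of set B, so sex was matched within sets A and B. It was not matched among the untreated embryos that entered the fit, where untreated mutant 3 was the single male. Mesenchymal markers of the shelf were present in every library, with Twist1 at 96.3 to 128 FPKM and Prrx1 at 62.1 to 89.0 FPKM over all 12.

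Of 14107 genes with at least 1 FPKM in 3 of 12 columns, 1420 differed between WAY mutants and WAY controls (10.1%, limma with the set as block, Benjamini-Hochberg adjusted p under 0.05). Of these, 579 were higher in mutants (4.10%) and 841 lower (5.96%). The median log2 fold change of all genes was -0.042, and 40.7% of genes lay above 0. After median-ratio scaling the median was near 0 and the split was 691 higher and 472 lower. With no block 63 genes passed, 36 higher and 27 lower, all of them among the 1420 and in the same direction. The count rested on single libraries: it was 107 without WAY mutant 2, 308 without WAY mutant 3, 311 without WAY mutant 1, 315 without WAY control 1, 727 without WAY control 2 and 3528 without WAY control 3, and it was 458 to 816 without any untreated library other than untreated mutant 1 (1181) and untreated control 1 (1165). Across all 12 such omissions 92 genes kept their call, 52 higher and 40 lower.

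Pax9 itself followed the genotype labels. It had 6.07, 6.13 and 5.69 FPKM in WAY mutants 1, 2 and 3, and 28.5, 22.8 and 30.03 FPKM in WAY controls 1, 2 and 3. The lowest control was the heterozygous embryo, and no mutant came near it. The log2 fold change, mutant minus control, was -2.09 ± 0.11 (SE, n = 3 each, limma adjusted p = 5.64e-05). Pax9 lies at chromosome 12, 56691767 to 56712822 (mm10). Which part of the gene the remaining reads of mutants cover cannot be read from these values.

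Msx1, the partner of Pax9 in dental and palatal mesenchyme (chromosome 5, 37820485 to 37824583), fell. It had 28.7, 21.1 and 22.1 FPKM in WAY mutants 1, 2 and 3, against 85.3, 65.2 and 59.3 FPKM in WAY controls 1, 2 and 3. Every mutant was far below every control, and within both groups the embryo of set A was the highest. The log2 fold change was -1.52 ± 0.069 (limma adjusted p = 3.22e-05).

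Bmp4, the secreted ligand that both are known to control (chromosome 14, 46383520 to 46390669), fell with them. It had 9.94, 8.24 and 9.45 FPKM in the WAY mutants and 22.1, 24.1 and 22.1 FPKM in the WAY controls, so the groups did not overlap and the controls were nearly level. The log2 fold change was -1.26 ± 0.071 (limma adjusted p = 7.56e-05). Sostdc1, a secreted inhibitor of BMP and Wnt ligands made in tooth and palate epithelium (chromosome 12, 36314139 to 36318452), had 23.7, 24.5 and 25.6 FPKM in the WAY mutants and 41.9, 54.8 and 54.7 FPKM in the WAY controls. Its mutants were close to each other and below all controls, and it fell by 1.01 ± 0.074 on the log2 scale (limma adjusted p = 0.000431).

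Tfap2b, an AP-2 factor of cranial neural crest (chromosome 1, 19208914 to 19238576), had 4.43, 3.05 and 3.096 FPKM in the WAY mutants against 13.3, 9.15 and 10.2 FPKM in the WAY controls. It fell in both sets alike, by 1.49 in set A and 1.51 in set B on the log2 scale (limma adjusted p = 8.14e-05 over both).

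Gdf7, a BMP-family ligand (chromosome 12, 8297918 to 8301954), was low in every library and rose. It had 3.83, 2.297 and 3.27 FPKM in the WAY mutants and 1.31, 0.3298 and 0.798 FPKM in the WAY controls. The lowest mutant was above the highest control, and the lowest control was the heterozygous embryo. The log2 fold change was 1.52 ± 0.17 (limma adjusted p = 0.00426), a value that the pseudocount of 0.5 keeps smaller than the ratio of the means.

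Osr2, a zinc-finger factor needed for growth of the shelf (chromosome 15, 35296098 to 35303305), rose too. It had 136, 125 and 129 FPKM in the WAY mutants and 70.96, 90.9 and 52.8 FPKM in the WAY controls. The mutants were alike and above all controls, which spread widely. The log2 fold change was 0.89 ± 0.15 (limma adjusted p = 0.0173). The call was lost without WAY mutant 1, WAY control 1, WAY mutant 2 or WAY mutant 3, with an adjusted p of up to 0.0742 (without WAY mutant 2, where the log2 fold change was 0.91).

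**Figure D1:**
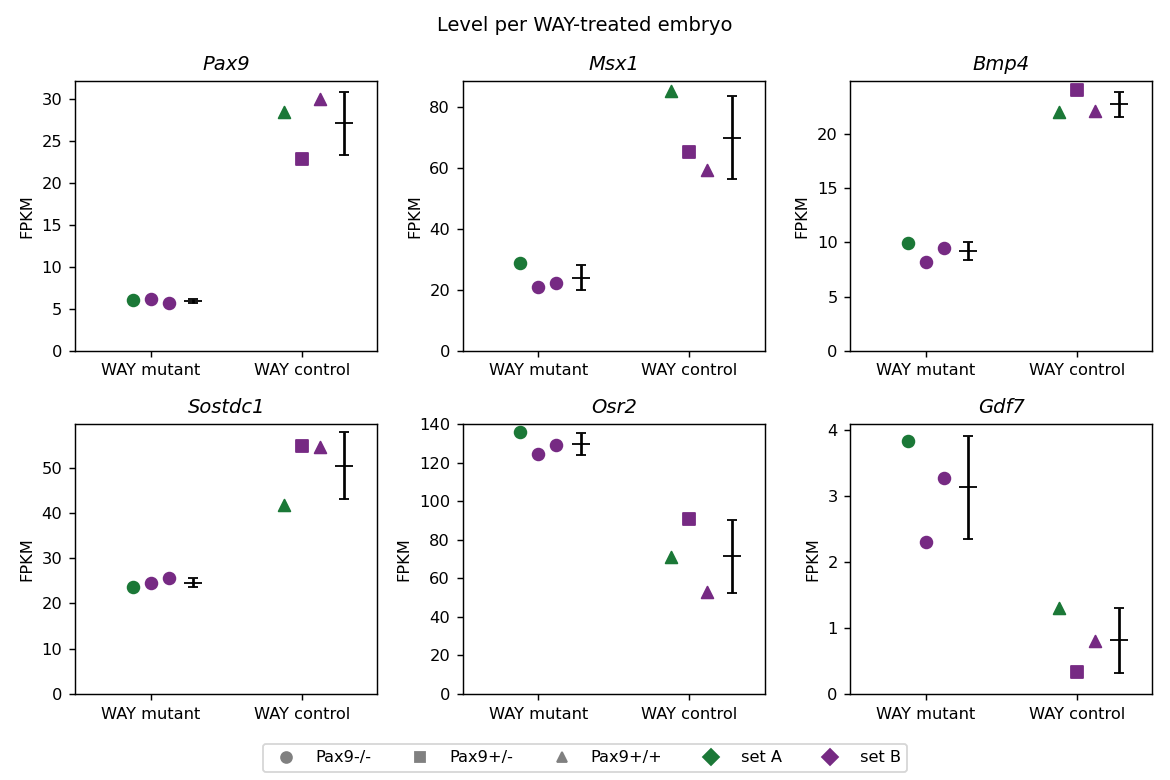
FPKM of Pax9, Msx1, Bmp4, Sostdc1, Osr2 and Gdf7 in each WAY-treated embryo, mutants left of controls, with genotype as symbol and set as colour; the bar at the right of each group is the mean ± SD (n = 3). Pax9, Msx1, Bmp4 and Sostdc1 were lower in every mutant than in every control, with Pax9 at 5.69 to 6.13 FPKM in mutants, while Osr2 and Gdf7 were higher in every mutant.

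The stretches just upstream of Msx1, Bmp4, Tfap2b and Gdf7 are shown because these factors and ligands were among the 24 genes with the largest differences described below. Each is the 250 bases before the RefSeq transcription start (GRCm38.p6), read 5′ to 3′ on the gene's own strand. Capitals mark matches on either strand to CCAAT (the CCAAT box), TCAAAG (the core bound by TCF/LEF factors) or TAATTG (a homeodomain core of the MSX type).
Msx1 chr5:37824586-37824835, minus strand: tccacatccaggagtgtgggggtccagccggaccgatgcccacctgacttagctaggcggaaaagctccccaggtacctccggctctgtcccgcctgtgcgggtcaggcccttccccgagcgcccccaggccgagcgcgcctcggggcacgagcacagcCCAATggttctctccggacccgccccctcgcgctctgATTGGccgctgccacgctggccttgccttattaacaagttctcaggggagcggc
Bmp4 chr14:46390670-46390919, minus strand: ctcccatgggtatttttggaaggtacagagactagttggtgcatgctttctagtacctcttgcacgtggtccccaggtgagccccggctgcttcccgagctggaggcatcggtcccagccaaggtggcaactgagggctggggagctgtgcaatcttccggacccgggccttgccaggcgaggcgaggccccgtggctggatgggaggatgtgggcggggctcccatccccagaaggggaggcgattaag
Tfap2b chr1:19211804-19212053, plus strand: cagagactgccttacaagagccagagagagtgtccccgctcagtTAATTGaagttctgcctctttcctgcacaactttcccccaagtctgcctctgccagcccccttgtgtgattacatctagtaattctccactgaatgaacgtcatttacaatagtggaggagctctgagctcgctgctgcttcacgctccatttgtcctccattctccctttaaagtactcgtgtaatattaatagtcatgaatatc
Gdf7 chr12:8301955-8302204, minus strand: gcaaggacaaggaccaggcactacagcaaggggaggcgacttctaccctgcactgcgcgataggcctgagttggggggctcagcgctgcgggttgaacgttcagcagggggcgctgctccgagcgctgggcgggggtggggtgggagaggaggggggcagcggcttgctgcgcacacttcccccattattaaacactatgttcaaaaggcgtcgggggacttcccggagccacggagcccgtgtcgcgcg
The Msx1 stretch held 2 CCAAT matches, and the Tfap2b stretch held 1 TAATTG match. The Bmp4 and Gdf7 stretches held none of the motifs. Of 32851 stretches of the same length in the RefSeq table, 33.8% held CCAAT, 13.8% TCAAAG and 7.17% TAATTG, and none of these motifs overlapped another here. A match describes the letters only. The RefSeq start of Tfap2b lies inside the gene as GENCODE M21 draws it, so its stretch does too.

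The 12 largest falls and the 12 largest rises were taken among genes that passed, averaged at least 2 FPKM in the higher group, had an established symbol and kept mutants and controls apart within both sets. After Pax9 (-2.09) the falls were led by Ascl5 (-1.70 ± 0.36), a basic helix-loop-helix factor, and Hs3st6 (-1.55 ± 0.12), which adds sulfate to heparan sulfate. Ascl5 had 0.478, 0.3298 and 0.754 FPKM in the WAY mutants and 1.08, 4.05 and 4.31 FPKM in the WAY controls. Its control of set A lay close to the mutants, and the call was lost without WAY mutant 2, WAY control 2 or WAY mutant 3 (adjusted p of up to 0.115). Hs3st6 had 1.42, 1.67 and 1.71 FPKM in the WAY mutants and 3.89, 6.15 and 7.47 FPKM in the WAY controls, with no overlap.

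The other falls were Msx1, Tfap2b and Bmp4, the secreted C1q-family protein C1qtnf3 (-1.33), the adenylyl cyclase Adcy8 (-1.22), the uroplakin Upk3a (-1.20), the kinase Stk32b (-1.19), the keratinocyte protein Krtdap (-1.18) and Pla2g7 (-1.12), a secreted phospholipase that breaks down platelet-activating factor. Adjusted p-values of these ran from 3.22e-05 (Msx1) to 0.0276 (Krtdap) in limma. Upk3a and Krtdap differed far more between sets than between genotypes. Upk3a had 0.515, 3.43 and 3.43 FPKM in the WAY mutants and 1.05, 10.6 and 10.6 FPKM in the WAY controls. Its set A control was below the set B mutants, so the pooled groups overlapped and the comparison holds within sets. Upk3a was lost without WAY mutant 2 (adjusted p = 0.0512), and Krtdap without any WAY library other than WAY control 3 or without untreated control 3 (adjusted p of up to 0.0969).

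Besides Gdf7 and Osr2 the rises were the somatostatin receptor Sstr1 (1.09 ± 0.18), the netrin receptor Unc5d (0.88), Aard (0.87), the protocadherin Pcdh17 (0.85), the orphan receptor Gpr50 (0.85), the forkhead factor Foxp2 (0.85), Brinp3 (0.83), the neurite outgrowth factor Nexmif (0.80), the T-box factor Tbx15 (0.80) and Alg10b (0.80 ± 0.21), which adds glucose to the precursor of N-linked glycans. Tbx15 had 39.02, 29.6 and 29.5 FPKM in the WAY mutants and 27.7, 14.9 and 15.1 FPKM in the WAY controls. The set A embryo was the highest of each group, and the set A control was just below the set B mutants. Alg10b was the least secure of these. It had 25.1, 26.1 and 24.5 FPKM in the WAY mutants and 16.99, 9.06 and 18.9 FPKM in the WAY controls, where the heterozygous embryo was far below the other two. Its call was lost in 10 of 12 omissions, kept only without WAY control 2 or WAY control 3 (adjusted p of up to 0.161). Sstr1, Gpr50 and Pcdh17 lost theirs without WAY mutant 2 alone (adjusted p = 0.0742 each).

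Just outside the 24 were Zim1 (0.79) and the synaptic adhesion gene Lrrtm3 (0.77) among the rises, and Zfp385c (-1.06) and the keratin Krt1 (-1.05) among the falls. The 3 mutants lay entirely above or below the 3 controls in 18 of the 24, against 20.6% of all genes tested. Since the choice of these genes used the same contrast, nothing is read from that share. The heterozygous control of set B lay between the set B mutants and the wild-type control of that set in 11 of the 24, Pax9, Tfap2b and Osr2 among them, and not in the other 13, Msx1 and Bmp4 among them.

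Set A (1 mutant, 1 control) and the untreated embryos of the same column prefix were left out of a fit of the other 8 libraries, and the calls of that fit were then read in set A. Of 285 genes called, 261 (91.6%) had the same sign in set A, while 11084 of all 14107 genes (78.6%) had the same sign in sets A and B. Set A also held the trend with transcript length described below. There rho of the deviation with length was 0.24 in WAY mutant 1 and -0.12 in WAY control 1. The part of that trend in the shared signs was not tested. By direction, 99 of 103 rises (96.1%) and 162 of 182 falls (89.0%) kept their sign. Rises had a median log2 fold change of 0.62 in the fit and 0.42 in set A, and falls of -0.61 in the fit and -0.23 in set A. Both rises and falls were thus smaller in the pair of embryos that did not choose them. Of the 24 genes named by size, 16 had a larger difference in set B than in set A. Msx1 (-1.56 in set A, -1.51 in set B), Osr2 (0.93 and 0.87) and Pax9 (-2.14 and -2.06) were close in both, and Ascl5 (-0.69 and -2.20) and Sstr1 (0.52 and 1.37) were not. With 1 embryo a group in set A, whether the sets differ was not tested.

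**Figure D2:**
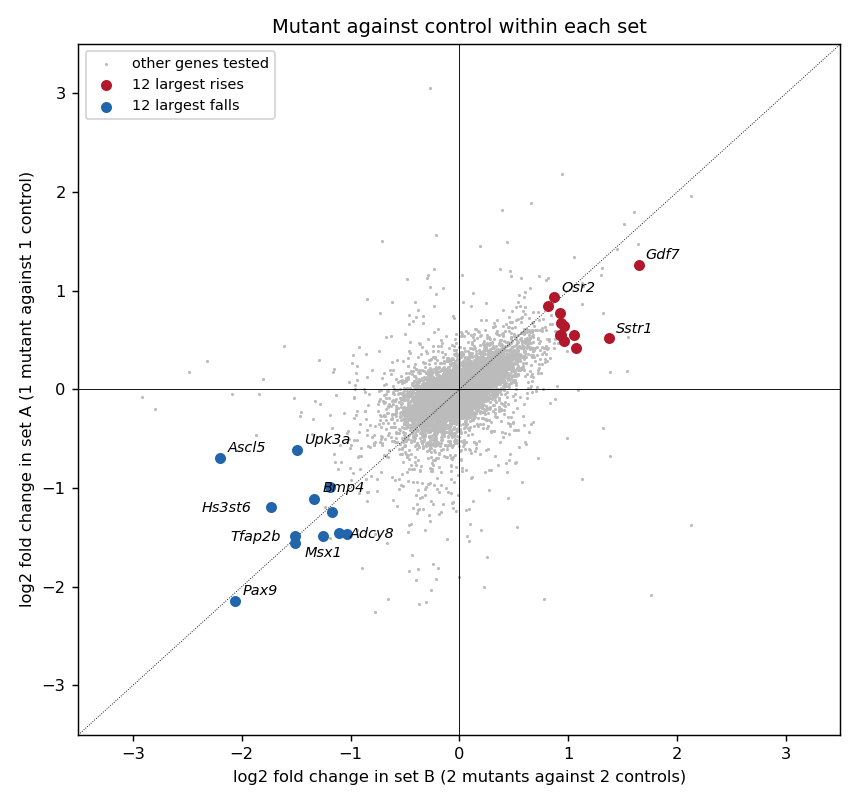
Log2 fold change, mutant minus control, of each gene tested in set A (vertical axis, 1 mutant against 1 control) and in set B (horizontal axis, 2 mutants against 2 controls); red and blue points are the 12 largest rises and falls, and the dotted line marks equal values. Pax9, Msx1, Tfap2b and Osr2 lie near the line, while Ascl5 and Sstr1 were larger in set B.

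Beyond Bmp4 and Gdf7, other BMP genes moved in both directions. The gene lists from here on were chosen with earlier results of these data known, so their counts are descriptions. Of 15 BMP and GDF ligands kept (of 17 listed), 4 rose (4.10% of all genes did) and 1 fell (5.96%). Their median was 0.079, against -0.042 for all genes. The rises were Gdf7, Bmp3 (0.65 ± 0.076), a ligand known to oppose BMP signalling, Bmp2 (0.34) and Bmp6 (0.22). Bmp3 had 10.1, 13.6 and 12.4 FPKM in the WAY mutants and 6.96, 6.999 and 8.399 FPKM in the WAY controls, with no overlap. Bmp2, known from the epithelium and mesenchyme of the shelf, had 9.75, 11.3 and 11.8 FPKM in the WAY mutants and 7.76, 8.79 and 9.07 FPKM in the WAY controls, again with no overlap (limma adjusted p = 0.00934). Bmp2, Bmp3, Bmp4 and Gdf7 kept their calls in every omission of a library, and Bmp6 did not.

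Of 10 BMP receptors and transducers, 3 rose (4.10% of all genes did) and none fell (5.96%). The rises were the receptors Acvr2a (0.34) and Bmpr1a (0.27) and the transducer Smad5 (0.26). The list median was 0.24, and 0.18 without WAY control 2, where 1 member passed. Of 13 antagonists kept, 4 fell and 2 rose. Beside Sostdc1 the falls were Grem1 (-0.70), Nbl1 (-0.44) and Bmper (-0.23), and the rises included Chrdl1 (0.47), all of them secreted proteins that bind BMP ligands. Grem1 had 1.37, 2.58 and 2.15 FPKM in the WAY mutants and 3.05, 3.33 and 4.35 FPKM in the WAY controls, with no overlap. Apart from Sostdc1 each of these antagonists, and each of the receptors, lost its call in at least 1 omission.

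Of 10 genes that BMP signalling is known to raise, 3 fell (Msx1, Id4 at -0.48 and Id3 at -0.28) and Id2 rose (0.20). Over all genes tested, 5.96% fell and 4.10% rose. Id proteins block basic helix-loop-helix factors. Msx1 and Id4 held in every omission, Id3 in 4 of 12 and Id2 in 1 of 12 (adjusted p of up to 0.172 for Id3 and 0.175 for Id2). Id3 had 105, 92.02 and 101.2 FPKM in the WAY mutants and 122, 127 and 113 FPKM in the WAY controls, and Id2 had 108, 109.8 and 100.1 FPKM in the WAY mutants and 97.2, 94.6 and 85.1 FPKM in the WAY controls. The list median was -0.084 here and 0.033 once a trend with transcript length and GC content was removed.

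The agonist acts on Wnt signalling through Dkk1 and was given to both groups, so differences in Wnt genes do not measure its action. Of 13 Wnt ligands kept (of 17), 3 fell (Wnt16 at -0.58, Wnt6 at -0.39 and Wnt5a at -0.26) and Wnt2b rose (0.39), against 10.1% of all genes called. Wnt5a, a ligand that mostly signals outside the canonical route, had 15.5, 17.3 and 14.8 FPKM in the WAY mutants and 18.5, 19.2 and 19.5 FPKM in the WAY controls. None of the 4 ligand calls held in every omission. With median-ratio scaling 1 ligand rose and none fell.

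Of 24 Wnt receptors and co-receptors kept, Lgr5, a receptor for R-spondins and itself a Wnt target (0.67 ± 0.064, limma adjusted p = 0.00156), and Lrp6, the co-receptor that Dkk1 binds (0.42, limma adjusted p = 0.0429), rose, and none fell. So 2 of 24 were called, against 10.1% of all genes. Lgr5 had 10.9, 8.19 and 7.44 FPKM in the WAY mutants and 6.75, 5.03 and 4.33 FPKM in the WAY controls. All mutants were above all controls, and the set A embryo was again the highest of each group. Lrp6 had 25.6, 27.98 and 25.95 FPKM in the WAY mutants and 20.5, 16.2 and 22.9 FPKM in the WAY controls, where the heterozygous embryo was the lowest. Lgr5 held in every omission, and Lrp6 in 2 of 12 (adjusted p of up to 0.163).

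Of 14 secreted Wnt antagonists kept, Dkk2 rose (0.65 ± 0.064, limma adjusted p = 0.00193), and Sostdc1 and Sfrp2 (-0.46) fell. Among all genes tested, 4.10% rose and 5.96% fell. Dkk2, a relative of Dkk1 that also binds Lrp6, had 22.1, 31.2 and 30.6 FPKM in the WAY mutants and 15.3, 17.2 and 20.04 FPKM in the WAY controls. Sfrp2, which binds Wnt ligands directly, was among the most abundant messages, with 402, 373 and 404 FPKM in the WAY mutants and 514, 588 and 520.2 FPKM in the WAY controls. Neither gene's groups overlapped, and Sfrp2 lost its call without WAY mutant 2 (adjusted p = 0.0634). Sfrp5 had -0.80 and did not pass (limma adjusted p = 0.0554).

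Of 18 genes known to respond to canonical Wnt signalling, Lef1 (-0.66 ± 0.089, limma adjusted p = 0.00696) and Sp5 (-0.67) fell, and Lgr5 and Ccnd1 (0.21) rose. Across all genes tested, 5.96% fell and 4.10% rose. Lef1, a transcription factor through which beta-catenin acts, had 2.92, 1.97 and 1.79 FPKM in the WAY mutants and 4.54, 3.51 and 3.25 FPKM in the WAY controls. Within each set the mutants were below the controls. The list median was -0.092. Lef1 and Lgr5 held in every omission, Sp5 and Ccnd1 did not. With no block none of Lef1, Lgr5 and Dkk2 passed (adjusted p of 0.146, 0.123 and 0.148).

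Of 45 palatal regulators kept, 5 rose and 10 fell (4.10% and 5.96% of all genes did), with a median of -0.0086. Beside Pax9, Msx1 and Tfap2b the falls included Dlx2 (-0.57), Foxf1 (-0.44), a target of Hedgehog signalling in facial mesenchyme, Tfap2a (-0.44), Gsc (-0.41), Pitx1 (-0.41) and Alx1 (-0.31). Foxf1 had 30.8, 27.4 and 25.4 FPKM in the WAY mutants and 37.7, 39.6 and 36.1 FPKM in the WAY controls. It was the only one of these additional falls that held in every omission. Beside Osr2 the rises were Zfhx4 (0.46), Alx4 (0.39), Meox2 (0.29) and Foxd1 (0.28), and none held in every omission. Meox2, a homeobox gene of the posterior palate, had 14.6, 16.8 and 16.5 FPKM in the WAY mutants and 13.2, 13.3 and 12.3 FPKM in the WAY controls. Hand2, a target of BMP signalling in facial mesenchyme, had -0.85 and did not pass (limma adjusted p = 0.214).

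Of 15 genes of dental epithelium and mesenchyme kept (of 19), 7 fell (5.96% of all genes did) and none rose, with a median of -0.57 (-0.22 in set A and -0.73 in set B). They included Ascl5, Msx1, Bmp4, Sostdc1, the keratin Krt17 (-0.82) and Dlx2. Sp6, an enamel factor (-1.93, limma adjusted p = 0.0577), and Fgf3 (-1.41, 0.1) had large differences that did not pass. Bmp4, Msx1 and Sostdc1 held in every omission, 5 members fell without WAY control 2 or with the length and GC trend removed, and 3 fell with no block. The summed FPKM of the list was 569.8, 523 and 547 in WAY mutants 1, 2 and 3, and 656, 874 and 728 in WAY controls 1, 2 and 3. Every mutant was below every control. In bulk tissue, fewer cells of a type and less RNA per cell cannot be told apart.

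Markers of oral epithelium were lower in the same embryos. Of 30 markers, 10 fell (5.96% of all genes did) and 1 rose (Cldn1, 0.32), 29 had a log2 fold change below 0, and the median was -0.29 (-0.10 in set A and -0.39 in set B). The falls were Krt17, the desmosomal genes Dsc3 (-0.59), Jup (-0.44), Pkp1 (-0.36) and Perp (-0.34), and Sfn (-0.47), Epcam (-0.42), Wnt6, Cldn6 (-0.37) and Foxe1 (-0.30). Jup alone held in every omission, 5 markers fell without WAY control 2, 5 with the length and GC trend removed and 0 with no block. Summed FPKM of the list was 649, 1306 and 1215 in WAY mutants 1, 2 and 3, and 731, 1865 and 1631 in WAY controls 1, 2 and 3. The set A embryos had far less epithelial signal than the set B embryos, and within each set every mutant was below every control. Of 10 periderm genes, the flat outer layer of the epithelium, 4 fell (Pla2g7, Krt6a at -0.66, Krt23 at -0.51 and Sfn) and Arhgap29 rose (0.24). Of these calls Pla2g7 held in every omission, and 1 periderm gene fell without WAY control 2 and 2 with the length and GC trend removed. Reads of Krt6a and its close copy Krt6b may be shared.

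With the mean level of the oral epithelium markers as a further term, 2 of 14107 genes passed, 0 higher and 2 lower. Those were Msx1 (log2 fold change -1.41, adjusted p = 0.0251) and Pax9 (-2.03, 0.0381). Bmp4 (-1.14, 0.0508) and Tfap2b (-1.40, 0.0558) were just over the threshold, and Osr2 had 1.04 (0.483) and Gdf7 1.01 (0.411). Without the term the log2 fold changes were -1.52 (Msx1), -2.09 (Pax9), -1.26 (Bmp4), -1.50 (Tfap2b), 0.89 (Osr2) and 1.52 (Gdf7). Sostdc1 had -0.83 with the term (limma adjusted p = 0.171) and -1.01 without it. The marker level was lower in mutants of every set, so the term shares much of its variation with the genotype. Nothing is therefore read from how far the fold changes moved, and the part that epithelial content has in the calls was not tested.

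**Figure D3:**
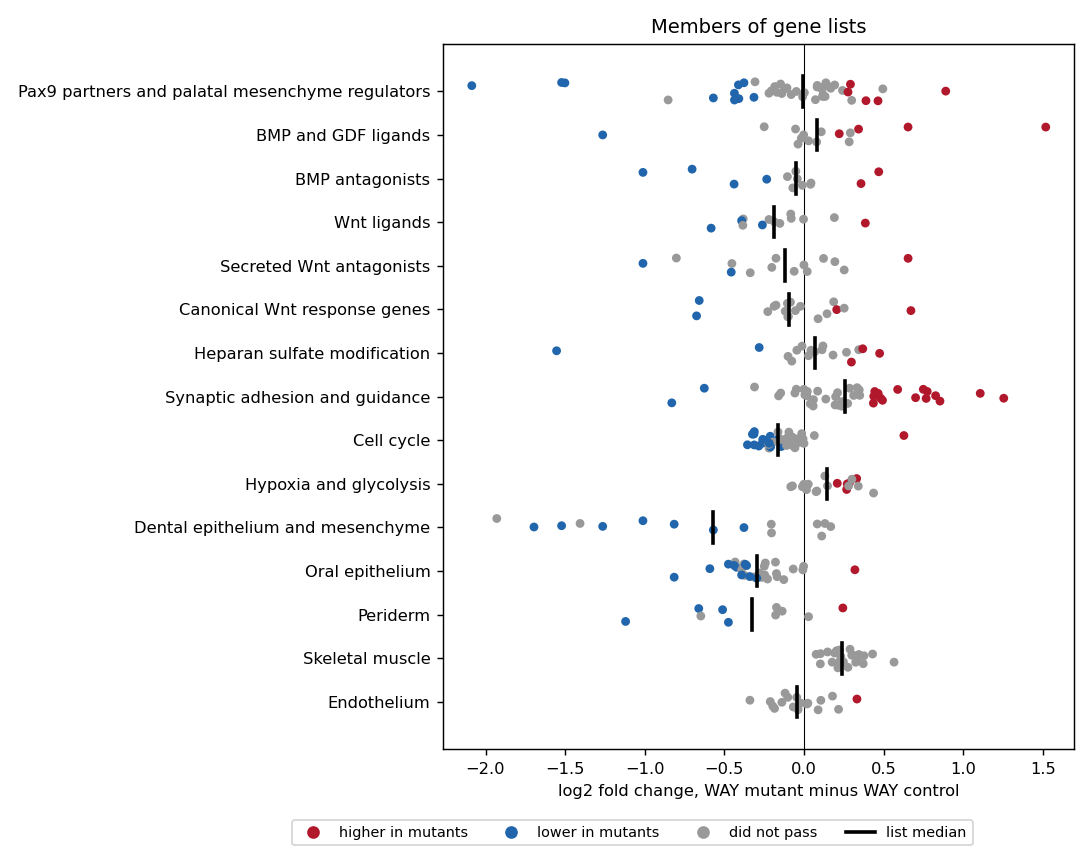
Log2 fold change, WAY mutant minus WAY control, of every kept member of 15 gene lists, coloured red where higher and blue where lower at an adjusted p under 0.05 (limma), with the list median as a black bar. Dental, oral epithelium and periderm genes lie mostly left of 0, with medians of -0.57, -0.29 and -0.33, synaptic adhesion genes mostly right (0.26), and BMP ligands and antagonists on both sides.

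Among other signals, few members passed (10.1% of all genes passed). None of 15 Hedgehog genes did, with the co-receptor Cdon at 0.33 (limma adjusted p = 0.0708). Shh had -0.76 (limma adjusted p = 0.149). Of 13 FGF ligands and receptors kept, Fgf18, a ligand of facial mesenchyme (-0.34), fell and Fgf12 rose (0.29), and of 11 FGF response genes Spred1, an inhibitor of the pathway, rose (0.31). Of 14 TGF-beta genes, the ligand Tgfb1 fell (-0.34) and the receptor Tgfbr1 rose (0.31). Of 15 Notch genes, the effector Hes1 fell (-0.39). None of 6 ectodysplasin genes passed, with Edaradd closest (-0.27, limma adjusted p = 0.114). Of 18 retinoic acid genes, Rdh10, which makes retinaldehyde, the precursor of retinoic acid, rose (0.59 ± 0.061, limma adjusted p = 0.00237). Rdh10 had 12.8, 12.5 and 11.7 FPKM in the WAY mutants and 8.85, 7.91 and 7.35 FPKM in the WAY controls with no overlap, and of the genes in this paragraph it alone kept its call in every omission.

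Matrix genes were divided, where 4.10% of all genes rose and 5.96% fell. Of 13 hyaluronan and proteoglycan genes kept, Has2, the main synthase of hyaluronan in the shelf (0.59), and its receptor Cd44 (0.32) rose, and the proteoglycan Fmod fell (-0.53). Has2 had 32.01, 31.9 and 28.3 FPKM in the WAY mutants and 26.7, 17.7 and 17.4 FPKM in the WAY controls. The set B controls were much lower than the rest, and no call in this list held in every omission. Of 17 heparan sulfate modifiers kept, Hs6st2 (0.47), the extracellular sulfatase Sulf1 (0.37) and Hs2st1 (0.30) rose, and Hs3st6 and Hs6st1 (-0.28) fell. Hs6st2 and Hs3st6 held in every omission.

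Genes of synaptic adhesion and axon guidance, many of which are also used by mesenchymal cells, mostly lay higher in the mutants. Of 44 kept (of 50), 16 rose (4.10% of all genes did) and 2 fell (5.96%), 36 lay above 0 (40.7% of all genes), and the median was 0.26. The list was chosen with earlier results of these data known, so nothing is read from the excess over all genes. Cbln4, a secreted synapse organiser, had 1.87, 1.51 and 1.72 FPKM in the WAY mutants and 0.558, 0.3198 and 0.396 FPKM in the WAY controls (log2 fold change 1.25 ± 0.11, limma adjusted p = 0.00104). The teneurin Tenm1 had 1.73, 1.91 and 1.66 FPKM in the WAY mutants and 0.558, 0.495 and 0.609 FPKM in the WAY controls (1.11 ± 0.11, 0.00156). Both were low and without overlap.

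The other rises in that list included the protocadherins Pcdh17, Pcdh10 (0.77), Pcdh19 (0.49) and Pcdh9 (0.46), the semaphorins Sema3d (0.70), Sema3e (0.59), Sema3a (0.44) and Sema3c (0.44), and Brinp3, Lrrtm3, Slitrk4 (0.75), Flrt2 (0.47) and the Slit receptor Robo2 (0.44). The falls were Lrrtm1 (-0.83 ± 0.054, limma adjusted p = 0.00019) and Cbln1 (-0.63). Lrrtm1 had 7.52, 7.57 and 7.35 FPKM in the WAY mutants and 12.3, 14.5 and 14.3 FPKM in the WAY controls. Of the 18 calls, 7 rises and 1 fall held in every omission (Cbln4, Tenm1, Brinp3, Lrrtm3, Pcdh10, Slitrk4, Flrt2 and Lrrtm1). With the length and GC trend removed, 12 rose and 4 fell and the median was 0.14. With no block 4 rose and 1 fell. Of 17 markers of neurons none passed, and their median was -0.42 (-0.999 in set A and -0.12 in set B).

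Of 35 cell cycle genes, 16 fell (5.96% of all genes did) and 2 lay above 0 (40.7% of all genes), and the median was -0.16. The falls were small, from -0.14 (Rrm1) to -0.36 (the mitotic kinase Plk1). Mki67, a marker of cycling cells, had 61.8, 56.5 and 52.1 FPKM in the WAY mutants and 75.6, 65.7 and 63.1 FPKM in the WAY controls (-0.26 ± 0.043, limma adjusted p = 0.0158). Cdk1, which drives entry into mitosis, had 41.04, 45.8 and 46.2 FPKM in the WAY mutants and 48.9, 63.5 and 55.2 FPKM in the WAY controls (-0.32). The mutants were below the controls in both genes. Cyclin E2 (Ccne2, 0.63) rose against the rest. No call in this list held in every omission, and none passed with no block. With the length and GC trend removed 11 fell, and with median-ratio scaling 10 fell. Of 13 cell cycle inhibitors kept, Cdkn2b (-0.998) and Cdkn2d (-0.24) fell, also not in every omission.

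Of 19 genes raised by hypoxia, 5 rose (4.10% of all genes did) and none fell (5.96%). The rises were Bnip3 (0.33), Pdk1 (0.28), Slc2a1 (0.27), P4ha2 (0.27) and P4ha1 (0.21). Without WAY control 2 only 1 rose, with no block 0 did, and with the length and GC trend removed 6 did. Of 14 stress genes kept, Hspb1 (-0.47) and Junb (-0.40) fell, and all 14 lay below 0, while 40.7% of all genes lay above it. In the stress list 0 genes fell without WAY control 2, with the length and GC trend removed or with no block. The median of that list was 0.052 in untreated embryos. None of these 7 calls held in every omission.

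Apart from pericyte and smooth muscle genes, markers of other tissues in the dissected shelf gave few calls (10.1% of all genes were called). Of the 12 pericyte and smooth muscle genes 3 fell and 1 rose (5.96% and 4.10% of all genes did). All 24 skeletal muscle genes kept lay above 0 (median 0.24) and none passed. Their summed FPKM was 1068, 397 and 547 in WAY mutants 1, 2 and 3, and 943, 456 and 346 in WAY controls 1, 2 and 3, so the groups overlapped and the set A embryos were highest. Of 12 pericyte and smooth muscle genes kept, Myh11 (-0.71), Tagln (-0.51) and Myl9 (-0.36), contractile genes, fell and the pericyte gene Rgs5 rose (0.52), the single call here that held in every omission. Rgs5 had 17.4, 17.6 and 15.9 FPKM in the WAY mutants and 11.9, 12.2 and 10.9 FPKM in the WAY controls. Prox1, of lymphatic endothelium, rose (0.33) as the single call among 18 endothelial genes, Sox9 rose (0.21) among 15 cartilage genes and Bmp2 among 17 genes of bone formation. Prox1 held in 3 of 12 omissions and Sox9 in 6 of 12. None passed among 18 macrophage, 9 erythroid, 8 Schwann and melanocyte or 11 nasal and ciliated epithelium genes kept, with adjusted p-values from 0.0672 (the globin Hba-a1, whose near-identical copies share reads) upwards.

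The same genotype comparison in untreated embryos gave 74 calls (0.525%), 32 higher (0.227%) and 42 lower (0.298%). Of the 74, 67 (90.5%) were also called in the same direction with WAY-262611, which is 4.72% of the 1420. Spread is estimated jointly, so both comparisons share it, but no library. The difference between both genotype effects was tested for each gene, and 0 of 14107 passed in limma, while 1540 had an unadjusted p under 0.05. The larger number of calls with treatment is therefore not shown to be a larger effect for any single gene.

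All 24 genes named by size had the same sign in untreated embryos, 13 were called there, and 20 had the larger value with WAY-262611. Since the genes were chosen for their size with WAY-262611, nothing is read from the last count. Bmp4 fell by 1.26 with treatment and by 0.83 ± 0.071 without. Untreated mutants 1, 2 and 3 had 11, 9.98 and 9.62 FPKM and untreated controls 1, 2 and 3 had 21.5, 17.1 and 17.01 FPKM. Within each column prefix, treated mutants were below untreated mutants, and treated controls were above untreated controls. These comparisons are not matched for control genotype, since untreated controls 2 and 3 were both Pax9+/- and WAY control 3 was Pax9+/+. No title number holds both treated and untreated embryos, so treatment and title number cannot be told apart. The difference of both effects was -0.44 ± 0.10 (unadjusted p = 0.00161, limma adjusted p = 0.444). For Msx1 it was -0.38 ± 0.10 (unadjusted p = 0.0031, limma adjusted p = 0.444), with 29.9, 24.9 and 25.7 FPKM in untreated mutants and 77.6, 51.7 and 52.4 FPKM in untreated controls. Neither difference passed.

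For Gdf7 the untreated mutants had 3.17, 2.91 and 2.94 FPKM and the untreated controls 1.501, 1.55 and 1.36 FPKM. The treated controls were below these controls, with the same limits of title number and control genotype. The difference of both effects was 0.68 ± 0.24 (limma adjusted p = 0.444). Pax9 (-0.043 ± 0.15), Tfap2b (0.054 ± 0.12), Osr2 (-0.086 ± 0.22) and Tbx15 (-0.0013 ± 0.12) had differences smaller than their errors. The 3 genes with the smallest p were Hist1h1c (-0.44 ± 0.070), Kazald1 (-0.58 ± 0.10) and the lysosomal membrane protein Lamp2 (0.36 ± 0.062), with a limma adjusted p of 0.444 each. Lamp2 had 19.1, 23.4 and 22.5 FPKM in the WAY mutants and 15.7, 17.4 and 17.8 FPKM in the WAY controls.

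**Figure D4:**
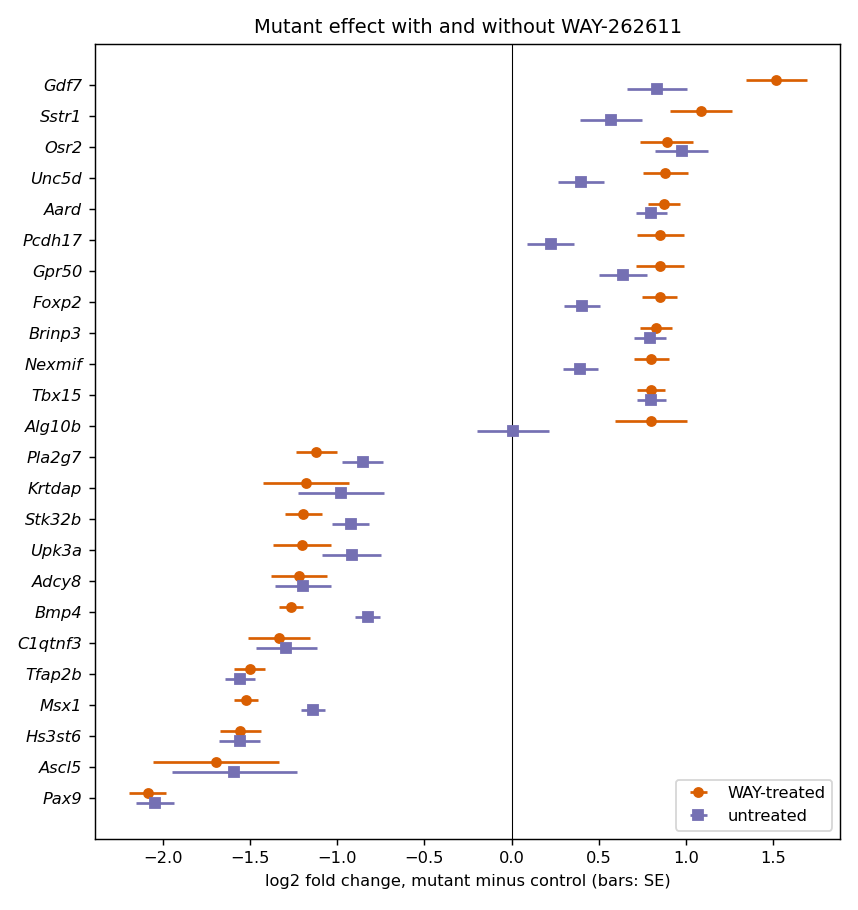
Log2 fold change, mutant minus control, with WAY-262611 (orange circles) and without it (violet squares) for the 12 largest rises and falls; bars are SE of the limma fit with set as block. All 24 have the same sign in both, and Bmp4, Msx1, Gdf7 and Foxp2 lie further from 0 with treatment, though no difference passed.

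Calls with treatment followed transcript length and base composition. Genes higher in WAY mutants had a median transcript length of 5432 bases and GC content of 42.9%, genes lower had 2143 bases and 52.8%, and genes not called had 3258 bases and 50.03%. Across 13931 genes Spearman's rho between log2 fold change and length was 0.45 with treatment and 0.11 without, as a description across genes of the same libraries. The trend explained 30.1% of the deviation of WAY control 2, the heterozygous embryo, and 1.31 to 10.7% in the other 11 libraries. That library deviated by 0.28 on the log2 scale in the shortest of 10 length classes and by -0.25 in the longest. With the trend removed 929 genes passed, 473 higher and 456 lower, of which 594 were among the 1420 in the same direction. Of the 24 genes named by size 23 kept their call. In the 6 WAY libraries alone 14 of the 24 did, with no block 11 and with the term for oral epithelium level 2. Without WAY control 2, 355 rose and 372 fell. The part that RNA quality has in this trend was not tested.

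**Figure D5:**
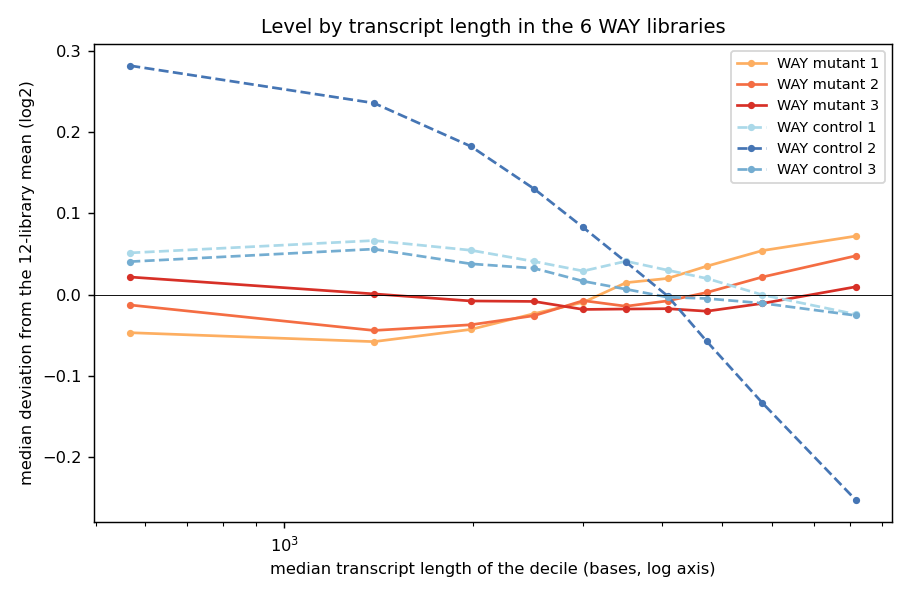
Median deviation of each WAY library from the mean of all 12 (log2 scale) for genes in 10 classes of transcript length (log axis), WAY mutants as solid red lines and WAY controls as dashed blue lines. WAY control 2 falls from 0.28 in the shortest class to -0.25 in the longest, and the other 5 libraries stay between -0.058 and 0.072.

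Of the 137 genes that passed and fell under the rule for named genes, 36 kept their call in all 12 omissions. Most of the others were lost without WAY mutant 2, where 40 of the 137 still passed, and fewest without WAY control 3, where 134 did. Beyond the omissions, 17 genes were also called under each of 11 other settings, the term for epithelium level aside. These were Pax9, Msx1, Bmp4, Tfap2b, Sostdc1, Hs3st6, Pla2g7, Lrrtm1 and Rdh10, described above, and Cacna2d1, Cntn3, Col23a1, Mir5117, Prr15, Scai, Stx18 and Trpm5, which were singled out by that count after their values were seen.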

How the data were processed

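RNA of the palatal shelves of 12 single embryos was sequenced from oligo(dT)-selected TruSeq libraries, per the labels' protocols. The authors deposited FPKM values for 19083 genes in 12 columns. Novoalign 2.08.03, DESeq2 and mm10 stand in the submitters' processing notes, while annotation, counting tool and strand setting were not given in the sources used here. FPKM are not counts, so no count model was fitted. Values were whole multiples of 1 read for 19083 of 19083 genes (within 0.02 read, with the gene length searched for 9242 of them), which gave the depth of 36.9 to 49.9 M reads. Positions and lengths came from GENCODE M21, matched by identifier for 18752 genes.

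Groups follow the labels. Genes with at least 1 FPKM in 3 columns were tested on log2(FPKM + 0.5) with limma 3.58.1 (R 4.3.3, trend, all 12 libraries, title number as replicate block (sets A, B, C and D are numbers 318, 422, 389 and 393, C and D untreated), 6 residual degrees of freedom, two-sided, Benjamini-Hochberg over 14107 genes). Fold changes on this scale understate those of low genes, and errors are SE of the fit. Same-numbered mutants and controls deviated together from their group means (correlation 0.32 to 0.83), differently numbered ones in opposite directions (-0.72 to -0.54). Deviations from a group mean cancel within the group, so the negative values follow from the positive ones. The number also runs with the column prefix and, in treated embryos, with sex. The correlations therefore cannot show that the number itself matters. The study's design text calls the controls littermates, but no label says that the number marks a litter. On simulated data with 14107 genes, 100 changes of 1.5-fold in the treated comparison were recovered in 85% of cases and 100 of 2-fold in 95%. Among the unchanged genes 8 were called. The simulated noise was independent between genes, with no deviation shared within a library such as the length and GC trend. These rates therefore do not give the recovery in the real libraries. Each library is 1 embryo, so p-values measure the spread between embryos of the same title number, pooled over treated and untreated embryos. They do not measure the spread between title numbers. The members and gene lists were chosen with earlier results of these data known. Named genes are the markers Pax9, Msx1, Bmp4 and Gdf7, the 12 largest rises and falls, list members that passed (up to 2 by p where none did) and the 3 smallest p-values of the difference. A few genes that this rule names are not reported here.

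Alternatives were no replicate block, the 6 treated libraries alone, sets B and D alone, pseudocounts of 0.1 and 1, no filter, at least 5 FPKM, median-ratio scaling, heterozygosity as a term, no variance trend and omission of each library. Removal of the length and GC trend and a term for oral epithelium level were added after seeing the data.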

Additional observations from a re-analysis of the deposited data

How the results depend on the processing

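The 1420 calls (579 higher, 841 lower) were 63 with no replicate block (36 higher, 27 lower), 65 in the 6 WAY libraries alone with the block (35, 30), 285 in sets B and D (untreated) only (103, 182), 664 with a term for heterozygous embryos (343, 321), 929 with the length and GC trend removed (456 lower) and 2 with a term for oral epithelium level (0 higher, 2 lower). Falls numbered 472 with median-ratio scaling and 519 with no variance trend. Leaving out 1 library gave 107 to 3528 calls, 56 to 1389 higher and 51 to 2139 lower, and 0 to 1 for the difference between treated and untreated effects, where WAY control 2 left out gave the 1. Pseudocounts and filters kept counts within 1.5 times. Of the named genes, 6 that had not passed changed sign: C1qb (0.0093) and Hist1h1c (0.044) with the length and GC trend removed, and Dcx (-0.14), Neb (-0.24), Rsph1 (0.18) and Ttn (-0.23) with the epithelium term. No other named gene changed sign in any setting. The cause of these changes was not tested. Of the 137 genes under the naming rule that passed, 19 passed with no replicate block and 29 in the 6 WAY libraries alone. Omissions leave few residual degrees of freedom, and a lost call there does not show a smaller effect. FPKM carry no counting interval, and low genes such as Gdf7 and Ascl5 are the least precise.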

Other observations

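Of 15 other tested genes within 1 Mb of Msx1 on chromosome 5, 2 were called, both lower in WAY mutants: Stk32b (-1.19 ± 0.11, limma adjusted p = 0.00123, 103.3 kb away) and Stx18, a vesicle fusion protein (-0.51, adjusted p = 0.00236, 214.2 kb away). Stk32b had 2.59, 1.15 and 1.53 FPKM in the WAY mutants and 6.81, 3.28 and 3.98 FPKM in the WAY controls. Both were lower in untreated mutants too (-0.92 and -0.30, limma adjusted p = 0.00703 and 0.0487), and both kept their calls in every omission of a library. Cytl1, which lies between Stk32b and Msx1, had -0.20 and did not pass, nor did Evc, Evc2 and Crmp1 on the far side of Stk32b, with log2 fold changes of -0.037, -0.067 and -0.60. The window was chosen after these values were seen.

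Around Pax9 on chromosome 12, 4 of 23 other tested genes within 2 Mb were called. Sstr1 (1499.0 kb away), Ralgapa1 (0.24) and Gm15524 (0.44) rose, and Cox6c2 fell (-0.55). Gm15524 overlaps Pax9, and with the strand setting not given, reads of both cannot be told apart.

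On the X chromosome 96 of 509 tested genes were called (18.9%, against 10.1% of all), 73 higher and 23 lower in WAY mutants. Sex was matched within sets A and B but not among the untreated embryos, where mutant 3 was the single male, and the part of the length and GC trend and of sex in this count was not tested.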
